A study of Mus with 12 samples.

Results

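The transcripts of 7 genes that encode m6A readers or m6A-associated ribonucleoproteins were examined, namely Ythdf1, Ythdf2, Ythdf3, Ythdc1, Ythdc2, Hnrnpc and Hnrnpa2b1. They were chosen by gene name, and every m6A peak that the lists assign to one of these names was taken. Of the 7 genes, 6 had peaks in all 6 livers and Ythdc2 had none, and their 97 peaks stood among 68562 peaks of 7906 genes in total. MeRIP-seq, which sequences the mRNA fragments that an m6A antibody retains, was done on livers of 3 mice on a high-fat diet (HFD 1 to HFD 3) and 3 mice on a low-fat diet (WT 1 to WT 3). All were male C57BL/6J mice of 6 weeks at the start. HFD mice were fed 60% of the energy as fat and WT mice 10% for 12 weeks, and WT names the diet group, not a genotype. The diet label gives HFD for every sample, so the groups came from the sample titles, which separate treated from control mice.

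N6-methyladenosine is set on mRNA by a writer complex and is bound by reader proteins, which decide much of what the mark does. Proteins with a YTH domain hold the methylated base directly. YTHDF1, YTHDF2 and YTHDF3 are close paralogs of the cytoplasm and are known for effects on translation and mRNA decay, YTHDC1 is the nuclear reader of splicing and export, and YTHDC2 is an RNA helicase best known from meiosis. HNRNPC and HNRNPA2B1 are abundant nuclear proteins, and HNRNPC binds stretches of U that become open when a nearby A is methylated. The peaks described here lie on the transcripts of these proteins. They show where the authors' peak calls found the readers' own mRNAs enriched by the m6A antibody. The false discovery rate deposited with the peaks of all lists was 25 to 100, taken to be in percent. Its median was 79.5 in HFD 1, 64.6 in WT 3 and 100 in HFD 2, HFD 3, WT 1 and WT 2. Single peaks are thus uncertain as sites of the mark.

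The lists held 10109 to 12966 peaks, with HFD 1 (12898) and WT 3 (12966) as the longest. Each peak has a fold enrichment of the immunoprecipitate over its input, from the authors' peak caller, and a score, which is its p-value on the -log10 scale multiplied by 10. The lists hold no read numbers, so depth is unknown, and a missing peak may reflect little methylation, little RNA or few reads, which cannot be told apart. WT 2 and WT 3 stood apart from the other livers, with peaks in 13 and 14 of 20 skeletal muscle markers. In each of HFD 1, HFD 2, HFD 3 and WT 1 it was 1 of 20, the nebulin gene Neb. Neb had 7, 5 and 1 peaks in HFD livers, against 12, 29 and 42 in WT livers, so WT 1 also stood above every HFD liver. Such groups, with WT higher, were seen in 0.519% of all genes. Of 7 adipocyte markers, 2 had a peak in WT 3 and none in any other liver. Ckm, Actn3, Mylpf, Atp2a1, Cacna1s and Pygm had no peak in any list. Of 18 hepatocyte markers, 7 had a peak in any library and 4 to 6 in each, and the albumin gene Alb had none. The part of the muscle signal in the results below was not tested, and some of the main values are also given without WT 2 and WT 3.

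The peaks of the 6 lists were merged where they overlapped, which gave 20 regions in the reader and hnRNP transcripts. They are numbered within each gene by rising coordinate. Of these, 10 regions had a peak in every liver, 3 in 5 livers, 3 in 4, 3 in 3 and 1 in a single liver. This made 10 of 20 regions with a peak in all 6 livers, against 34.0% of all 18374 regions. Positions are on the mouse build GRCm38, and by its RefSeq gene bounds no member region overlapped a second gene. Exons, coding parts and sequences of these regions were not analysed here.

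**Figure D1:**
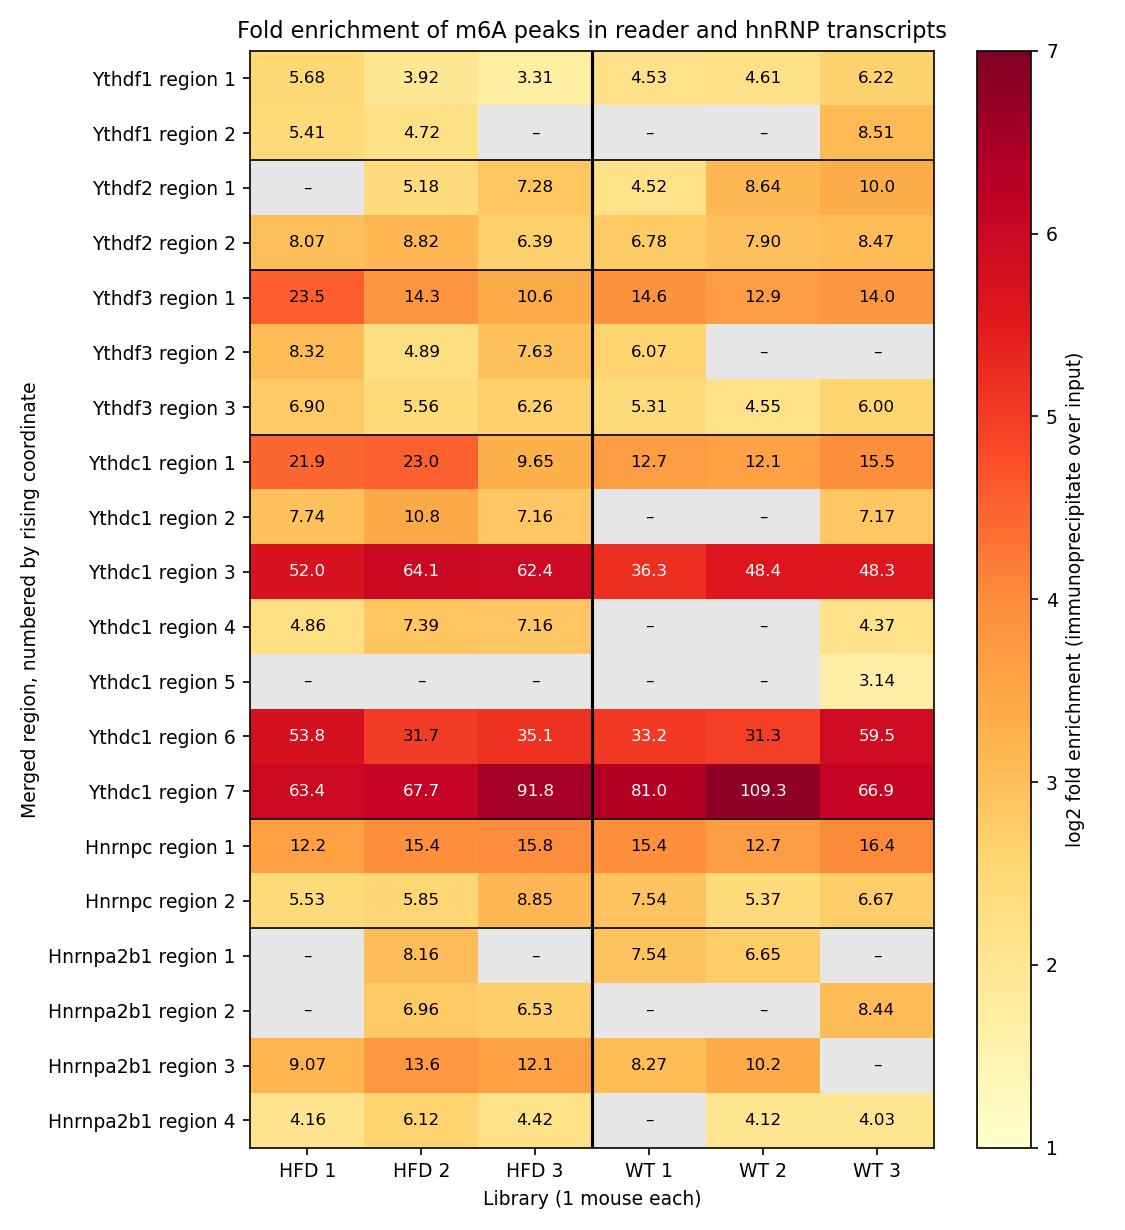
Fold enrichment of each merged region (rows, grouped by gene) in each library (columns, HFD left of WT), printed in the cell and coloured on a log2 scale, with a dash and grey where the list has no peak. Ythdc1 regions 3, 6 and 7 stand above all other regions in every liver, and no region has a peak in all livers of one diet and none of the other.

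Ythdc1 carried the strongest and the most numerous peaks. Region 7 lay on chromosome 5 from 86835684 to 86836485, 174 bases from the high-coordinate end of the gene. Its fold enrichment was 63.4, 67.7 and 91.8 in HFD 1, HFD 2 and HFD 3, against 80.99, 109.3 and 66.9 in WT 1, WT 2 and WT 3. The livers of both diets overlapped, and in every list this peak ranked above 99% of all peaks, with the lowest percentile at 99.1. Region 3 (chromosome 5 from 86816907 to 86817333) had 52.0, 64.1 and 62.4 in HFD livers, against 36.3, 48.4 and 48.3 in WT livers. All HFD values of region 3 lay above all WT values as deposited, as in 4.64% of the 6245 regions found in every liver. The groups overlapped once each library was centred on its median. Region 6 (chromosome 5 from 86833508 to 86833642) had 53.8, 31.7 and 35.1 in HFD livers, against 33.2, 31.3 and 59.5 in WT livers. The high values of region 6 were those of HFD 1 and WT 3, the livers with the longest lists. In region 7 the same livers had the lowest value of their diet group.

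The other regions of Ythdc1 were weaker. Region 1, which began 241 bases inside the low-coordinate end of the gene, had 21.9, 23.0 and 9.65 in HFD livers, against 12.7, 12.1 and 15.5 in WT livers, and the low value of HFD 3 made the groups overlap. Regions 2 and 4 (from 86815629 to 86815730 and from 86820086 to 86820175) had a peak in all 3 HFD livers and in WT 3 only among WT livers. Region 2 had 7.74, 10.8 and 7.16 in HFD livers, against 7.17 in WT 3, and region 4 had 4.86, 7.39 and 7.16, against 4.37 in WT 3. Region 5 was found in WT 3 alone at 3.14, the lowest fold enrichment of any peak in these transcripts. The number of Ythdc1 peaks was thus 6, 6 and 6 in HFD livers, against 4, 4 and 7 in WT livers, so the WT liver with the longest list had the most. Of all 7906 genes with a peak, 217 had more peaks on average.

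Ythdf3, with 3 regions, had a short peak at 1 end of the gene that was stronger in every liver than any peak of Ythdf1 or Ythdf2. Region 1 (chromosome 3 from 16183183 to 16183520), 35 bases inside the low-coordinate end, had 23.5, 14.3 and 10.6 in HFD livers, against 14.6, 12.9 and 14.0 in WT livers. HFD 1 was high and HFD 3 low, while the WT livers were close to each other. Region 2 (from 16189478 to 16189563) had a peak in all HFD livers, at 8.32, 4.89 and 7.63, against 6.07 in WT 1 and no peak in WT 2 or WT 3. These are the livers with peaks in the most muscle markers, and the part of the muscle signal in the missing peak was not tested. Region 3 (from 16203826 to 16205424) had 6.90, 5.56 and 6.26 in HFD livers, against 5.31, 4.55 and 6.00 in WT livers, which overlapped.

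Ythdf1, Ythdf2 and Ythdf3 each had a long peak with the same bounds in every liver. It was 1521 bases long in Ythdf1 (chromosome 2 from 180910687 to 180912207), 1584 in Ythdf2 (chromosome 4 from 132204132 to 132205715) and 1599 in Ythdf3 (region 3). Of the 6245 regions with a peak in all 6 livers, 1045 (16.7%) were at least 1500 bases long. Among them, 185 (2.96% of the 6245) had the same bounds in every list. The limit of 1500 bases lies just below the shortest of these paralog peaks. In Ythdf1 the fold enrichment of this peak was 5.68, 3.92 and 3.31 in HFD livers, against 4.53, 4.61 and 6.22 in WT livers, and 2.69% of all regions found in every liver had a lower mean. In Ythdf2 it was 8.07, 8.82 and 6.39 in HFD livers, against 6.78, 7.90 and 8.47 in WT livers. Neither of these peaks separated the diets. A lower mean was found for 25.7% of the regions for the Ythdf2 peak and for 7.62% for Ythdf3 region 3.

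The second region of Ythdf1 lay at the high-coordinate end of the gene (from 180920684 to 180920949) and ran 13 bases past its RefSeq bound. It had 5.41 and 4.72 in HFD 1 and HFD 2, against 8.51 in WT 3, and these are the 3 longest lists. Region 1 of Ythdf2 (chromosome 4 from 132185844 to 132186947) was missing in HFD 1 and had 5.18 and 7.28 in HFD 2 and HFD 3, against 4.52, 8.64 and 10.02 in WT livers. The number of Ythdf1 peaks was 2, 2 and 1 in HFD livers, against 1, 1 and 2 in WT livers, and that of Ythdf2 was 1, 2 and 2 in HFD livers, against 2 in each WT liver.

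Hnrnpc had the same 2 regions in every liver. Region 1 (chromosome 14 from 52073533 to 52075160) had a fold enrichment of 12.2, 15.4 and 15.8 in HFD livers, against 15.4, 12.7 and 16.4 in WT livers. Region 2 (from 52077403 to 52077563) had 5.53, 5.85 and 8.85 in HFD livers, against 7.54, 5.37 and 6.67 in WT livers. Neither region separated the diets by its fold enrichment.

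The length of the first Hnrnpc peak did separate them, an observation made after its values were seen. The peak ended at the same base in all 6 lists and covered 1069, 1628 and 1285 bases in HFD livers, against 474, 598 and 474 bases in WT livers. With the second region, the bases covered in Hnrnpc averaged 1488 ± 282 in HFD livers and 676 ± 71.6 in WT livers (SD, n = 3 each), a difference of 812 bases or 2.20-fold (two-sided exact permutation test, p = 0.1, the smallest that 3 against 3 can give). Groups that did not overlap, with HFD higher, were found for 3.71% of all genes with a peak and for 4.19% of the genes with a peak in all 6 livers, and with WT higher for 2.01% and 2.75%. By the length of single regions found in every liver, they were found for 1.83% with HFD higher and 1.38% with WT higher, or for 4.99% and 3.77% of the 2283 regions whose length varied. The lists held 12898, 11925 and 10288 peaks in HFD livers, against 10109, 10376 and 12966 in WT livers. The paper reports from its RNA-seq that HNRNPC mRNA was higher in HFD livers. The part of depth or of RNA amount in the length of this peak was not tested. The score of the peak was 2079, 2730 and 2429 in HFD livers, against 3100 in each WT liver. The difference was 758 bases once all lists were limited to an equal number of peaks (exact permutation test, p = 0.1), 662 to 941 bases when any library was left out, and 853 bases against WT 1 alone, a value with no test since a single WT liver gives no spread.

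**Figure D2:**
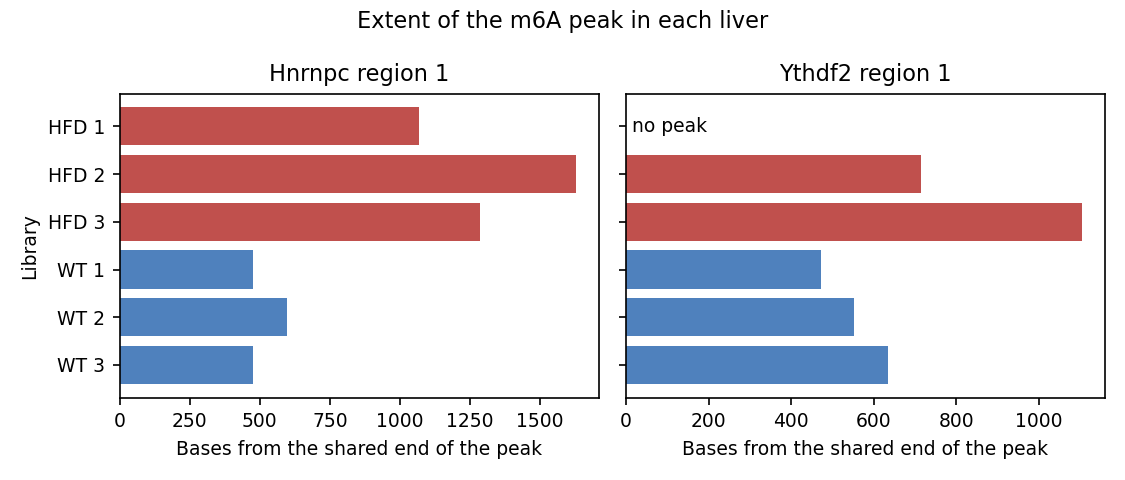
Bases covered by the peak in each library (bars, HFD above WT), measured from the end that is the same in all lists, for the first region of Hnrnpc and of Ythdf2. The Hnrnpc peak spans 1069 to 1628 bases in HFD livers and 474 to 598 bases in WT livers, and HFD 1 has no peak in the Ythdf2 region.

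The first region of Ythdf2 was longer in the 2 HFD livers with a peak there than in WT livers, which was not tested. It covered 714 and 1104 bases in HFD 2 and HFD 3, against 472, 553 and 635 bases in WT livers, again with a shared end. HFD 1 had no peak there, so the bases covered over the whole gene overlapped, at 1584, 2298 and 2688 in HFD livers, against 2056, 2137 and 2219 in WT livers (difference 52.7 bases, two-sided exact permutation test, p = 0.9). By contrast, the length of Ythdc1 region 7 was 802, 612 and 493 bases in HFD livers, against 572, 595 and 763 bases in WT livers, which did not separate the diets (difference -7.67 bases, same exact test, p = 1.0). Ythdc1 region 4 covered 67, 90 and 90 bases in HFD livers, against 46 in WT 3. Hnrnpa2b1 region 1 covered 569 bases in HFD 2, against 688 and 541 in WT 1 and WT 2. Hnrnpa2b1 region 2 covered 697 and 1490 bases in HFD 2 and HFD 3, against 1493 in WT 3. Of the 19 member regions found in at least 2 livers, 13 had the same bounds in every list that held them, as did 61.3% of all such regions.

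Hnrnpa2b1 was the 1 member with peaks of which no region, of 4, was found in all 6 livers. Region 3 (chromosome 6 from 51464089 to 51464211) had 9.07, 13.6 and 12.1 in HFD livers, against 8.27 and 10.2 in WT 1 and WT 2 and no peak in WT 3. Region 4 (from 51466495 to 51466705) had 4.16, 6.12 and 4.42 in HFD livers, against 4.12 and 4.03 in WT 2 and WT 3 and no peak in WT 1. Regions 1 and 2 lay at 51461033 to 51461732 and at 51461762 to 51463254, and each was found in 3 livers. Region 1 had 8.16 in HFD 2, against 7.54 and 6.65 in WT 1 and WT 2, while region 2 had 6.96 and 6.53 in HFD 2 and HFD 3, against 8.44 in WT 3. HFD 2 was the only liver with all 4 regions. The gene had 2, 4 and 3 peaks in HFD livers, against 2, 3 and 2 in WT livers.

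Ythdc2 (chromosome 18 from 44827730 to 44889720) had no peak in any liver, and no peak of another name lay within its bounds. Since the lists show only peaks that passed the caller, this says nothing on the level of its RNA.

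**Figure D3:**
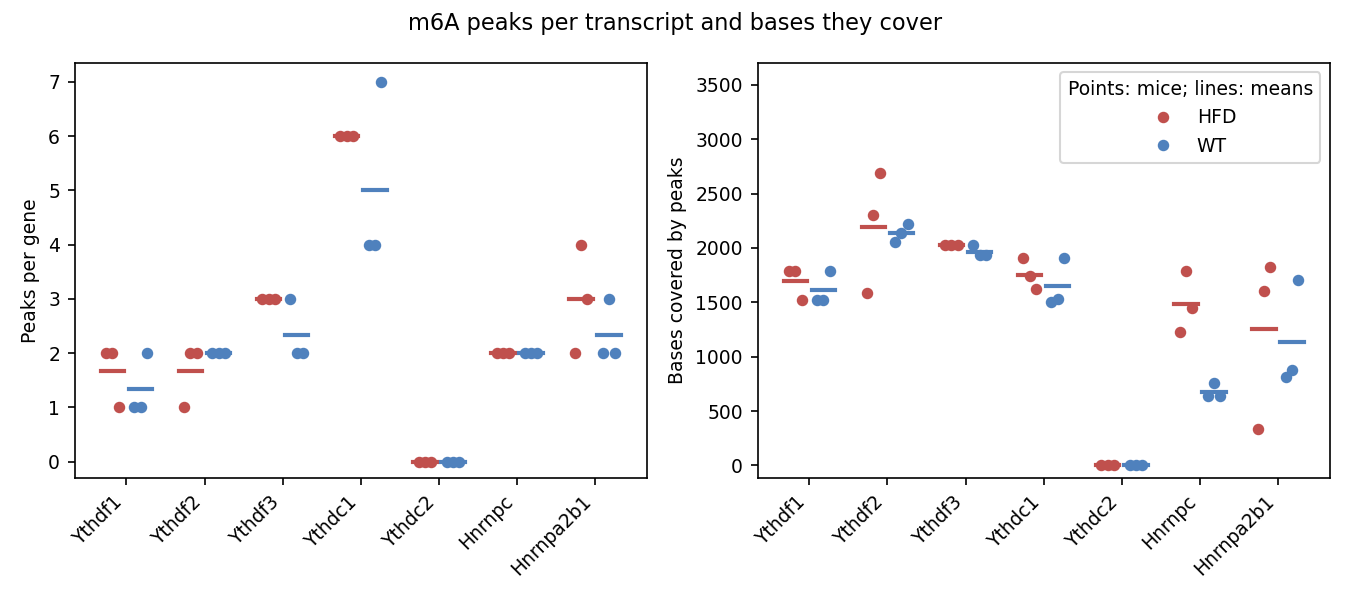
Number of peaks per gene (left) and bases covered by them (right) for each of the 7 genes, with a point for each mouse, HFD left of WT, and a line at the mean of each group. The bases covered in Hnrnpc, 1230 to 1789 in HFD livers and 635 to 759 in WT livers, are the only values whose groups do not overlap.

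In the comparison of diets, no member had a difference in its number of peaks beyond the spread between mice. The mean difference was 1 peak for Ythdc1 (two-sided exact permutation test, p = 0.4), 0.667 for Ythdf3 (p = 0.4) and Hnrnpa2b1 (p = 0.7), 0.333 for Ythdf1 (p = 1.0), -0.333 for Ythdf2 (p = 1.0) and 0 for Hnrnpc, with 3 mice against 3. None of the 7 genes had groups that did not overlap, against 1.45% of all genes with HFD higher and 0.519% with WT higher, or 1.21% and 0.565% of genes with a peak in every liver. Together the 7 genes had 16, 19 and 17 peaks in HFD livers, against 14, 14 and 17 in WT livers, and the high WT value was that of the longest list. These differences depended on single libraries. With any 1 library left out they ranged from 0.5 to 2 peaks for Ythdc1, from 0.5 to 1 for Ythdf3, from 0.167 to 1.17 for Hnrnpa2b1, from 0.167 to 0.667 for Ythdf1 and from -0.5 to 0 for Ythdf2. The Ythdc1 difference was 2 peaks without WT 3 and 0.5 without WT 1 or without WT 2. Ythdc1 was then the 1 member whose groups did not overlap without WT 3, as were 4.36% of all genes with HFD higher, and Ythdf3 without WT 1, as were 2.47%. Against WT 1 alone, Ythdc1 was again the 1 member and 9.5% of all genes were higher in every HFD liver. The difference was then 2 peaks for Ythdc1 and 0 for Ythdf3.

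No member region was found in all 3 livers of one diet and in none of the other, a pattern of 0.718% of all regions for HFD livers and 0.294% for WT livers. Ythdc1 regions 2 and 4 and Ythdf3 region 2 came closest, with a peak in all 3 HFD livers and in 1 WT liver. This held for 2.07% of all regions, and the opposite pattern, seen in no member, for 1.36%. Both Ythdc1 regions lie in 1 transcript and share the same libraries, and they do not count as separate results. More HFD than WT livers had a peak in 7 of the 20 member regions and more WT than HFD livers in 3, against 29.9% and 23.2% of all regions.

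The fold enrichment of the 10 regions found in every liver was then compared between the diets in a limma fit over all 6245 such regions. The values were on a log2 scale, and each library was centred on its median over these regions, which moved HFD against WT by 0.04. No member region passed an adjusted p of 0.05, and neither did any of the 6245 (0% in both directions). At an unadjusted p under 0.05, 130 regions were higher in HFD livers (2.08%) and 172 in WT livers (2.75%), none of them of a member. The largest member difference was that of Ythdc1 region 3, with a log2 value of 0.39 ± 0.25 (SE, limma, adjusted p = 0.999), or 1.31-fold. Against WT 1 alone, the log2 value of this region was 0.60. Before centring, its means were 59.5 ± 6.53 in HFD livers and 44.3 ± 6.93 in WT livers (SD, n = 3 each), and its groups did not overlap (two-sided exact permutation test, p = 0.1, the smallest possible). As deposited, 4.64% of all 6245 regions had such groups with HFD higher and 3.68% with WT higher. After centring the shares were 4.48% and 5.09%, and the groups of this region overlapped (two-sided exact permutation test, p = 0.2).

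The lowest member difference was that of Ythdf1 region 1, with a log2 value of -0.32 ± 0.23 (SE, limma, adjusted p = 0.999), or 0.803-fold. Over the 10 regions the median log2 difference was -0.03, with 4 above and 6 below 0, against a median of -0.02 over all regions, with 2928 above and 3317 below. With WT 1 as the only WT library, 2 of all regions and no member region passed the adjusted p of 0.05, but the spread then came from the HFD livers alone and WT 1 was assumed to vary like them. With 3 mice a group, the standard errors of 0.23 to 0.30 on the log2 scale limit what could be detected.

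**Figure D4:**
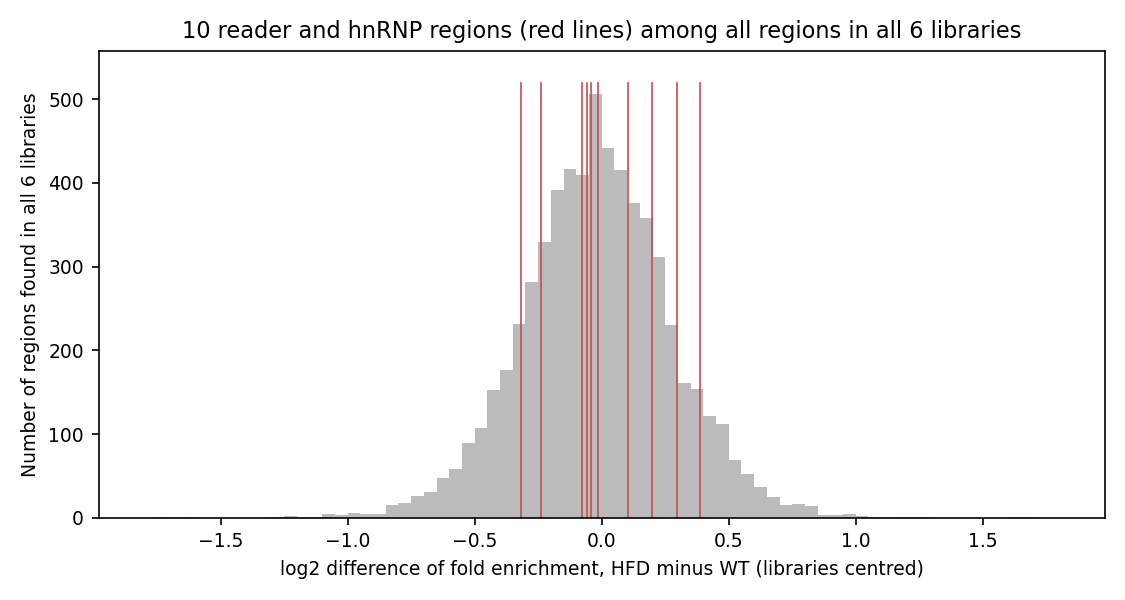
Histogram of the log2 difference of fold enrichment, HFD minus WT, over the 6245 regions with a peak in every liver, with red lines at the 10 regions of reader and hnRNP transcripts. The red lines run from -0.32 (Ythdf1 region 1) to 0.39 (Ythdc1 region 3), within the body of the distribution.

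The 10 regions were also ordered by their mean fold enrichment over all 6 mice. Ythdc1 region 7 (80.0 ± 17.9, SD, n = 6 mice) stood first, followed by Ythdc1 region 3 (51.9 ± 10.3) and region 6 (40.8 ± 12.5). Then came Ythdc1 region 1 (15.8 ± 5.48), Ythdf3 region 1 (14.98 ± 4.43) and Hnrnpc region 1 (14.7 ± 1.77). The lowest were Ythdf2 region 2 (7.74 ± 0.957), Hnrnpc region 2 (6.63 ± 1.35), Ythdf3 region 3 (5.76 ± 0.814) and Ythdf1 region 1 (4.71 ± 1.08). Of the 9 pairs of neighbours, 3 had the same order in all 6 mice, namely Ythdc1 region 7 over region 3, Ythdc1 region 6 over region 1, and Hnrnpc region 1 over Ythdf2 region 2. Each of these had p = 0.0312 in a two-sided exact sign-flip test over mice, the smallest that 6 mice can give, and an adjusted p of 0.0938 over the 9 pairs, which does not pass 0.05. The pairs were formed by ordering the same values that were tested, so these p-values cannot support the order. The other 6 pairs had p from 0.125 to 1.0 (same exact test), and for the same reason these values cannot show that the regions are alike. The median of the means over all regions found in every liver was 10.5, and the first Ythdc1 regions lay above 99.2%, 97.8% and 96.3% of them.

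**Figure D5:**
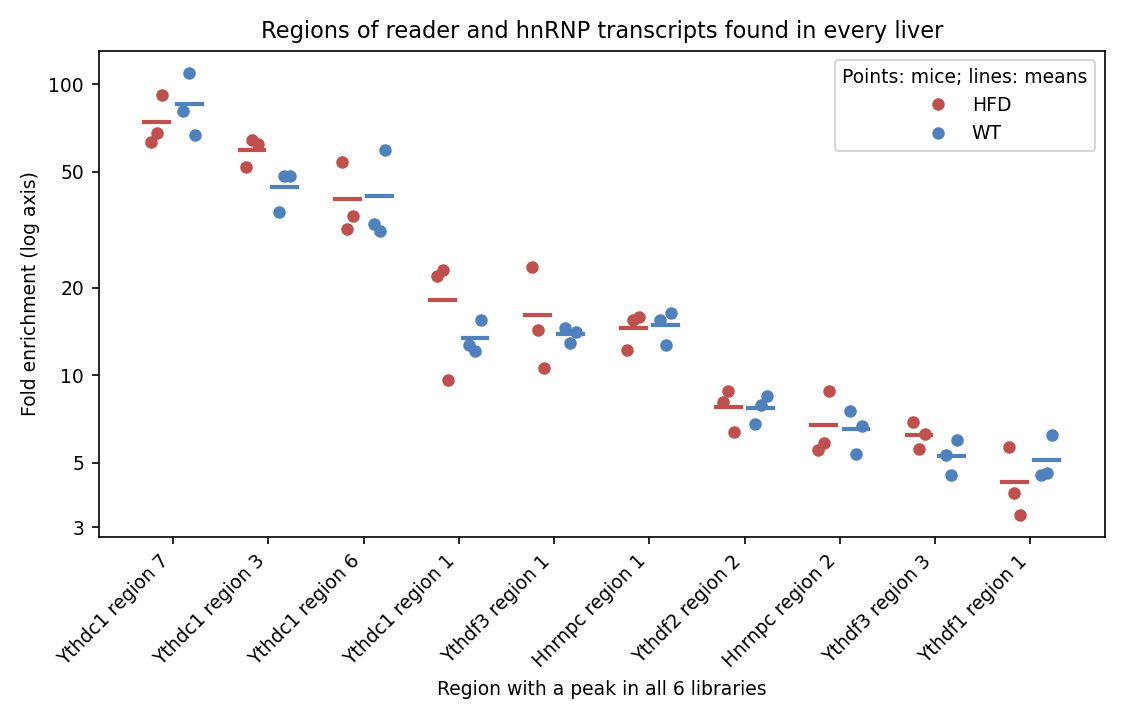
Fold enrichment (log axis) of the 10 regions with a peak in every liver, in the order of their means, with a point for each mouse, HFD left of WT, and a line at the mean of each group. The first 3 regions, all of Ythdc1, have means of 80.0, 51.9 and 40.8 over the 6 mice, and the long Ythdf1 peak is lowest at 4.71.

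Other genes of the pathway gave the setting of these values. Of 22 other hnRNP genes, 17 had a peak and 10 had one in every liver, led by Hnrnpm, Syncrip, Hnrnpd and Hnrnpul2. The strongest Hnrnpm region had 207.3, 136.2 and 117.0 in HFD livers, against 88.8, 114.7 and 176.2 in WT livers. Hnrnpm and Hnrnpa3 had more peaks in every HFD liver than in any WT liver, with 9, 10 and 9 against 7, 8 and 7 peaks in Hnrnpm and 2 against 1 peak per liver in Hnrnpa3. Such groups were seen in 1.45% of all genes. Of 11 other readers and RNA-binding proteins, 5 had a peak, and Eif3a, Fmr1 and Fxr1 had one in every liver. Igf2bp1, Igf2bp2 and Igf2bp3, a family of readers known for stabilising mRNA, had none. Of 14 writer and eraser genes, 12 had a peak and 7 had one in every liver, led by Virma, Zc3h13, Rbm15b and Rbm15, and none had groups that did not overlap. No region of these lists passed the limma test.

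The genes nearest to Ythdc1, Hnrnpc and Ythdf2, the members with the highest median fold enrichment, were sought among 3648 genes. The measure was the distance of their strongest regions over the 6 centred log2 values. The mean of each region was not removed, so nearness reflects the height of the enrichment as well as its pattern over the livers. Slc35b2 and Ncor1 were closest to Ythdc1, at distances of 0.51 and 0.61. Rtp3 and Pak2 were closest to Hnrnpc, at 0.24 and 0.25, and Bloc1s4 and Pcsk4 to Ythdf2, at 0.21 and 0.25. Ncor1, which encodes a transcriptional corepressor, had 72.5, 88.4 and 98.5 in HFD livers, against 98.7, 115.7 and 81.6 in WT livers.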

How the data were processed

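Livers of 3 HFD and 3 WT mice were profiled by MeRIP-seq, and 1 peak list per mouse was used. The authors called the peaks against the inputs, which were not analysed here. Tools listed in the submitters' notes are MACS2 2.1.0, Bowtie 1.1.2, Trimmomatic 0.33 and bcl2fastq 2.17, and the notes give a human build, hg38, although the positions are those of mouse genes. The deposited fold enrichment is a ratio of immunoprecipitate to input, with no scaling between libraries. The deposited score is the -log10 of the p-value multiplied by 10, is at least 50, and stands at exactly 3100 for 16 of the 97 peaks described. The false discovery rate, which the authors deposited, has values of 25 to 100, was taken to be in percent, and was not used further.

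Peaks were merged where they overlapped by at least 1 base, and starts were counted from 1. Gene bounds were taken from RefSeq for GRCm38. Two-sided exact permutation tests were used for peak numbers and covered bases, and the largest log2 fold enrichment per region by limma 3.58.1 (R 4.3.3) with the Benjamini-Hochberg adjustment, which was tested on simulated data. Same-numbered libraries were treated as pairs only as an alternative. The members, the lists, the naming rule and the tests were chosen with earlier results of these data known, and the tests on the order of regions and peak length were added later. Named genes were the members, up to 4 genes per pathway list by mean percentile of fold enrichment, genes whose peak numbers did not overlap, and the 2 genes nearest to each of 3 members. Motifs and transcript segments were planned but not analysed here.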

Additional observations from a re-analysis of the deposited data

How the results depend on the processing

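In the limma fits, 0 member regions passed an adjusted p of 0.05, and 4 of the 10 were not in the fit limited to regions at or above the median fold enrichment. Since 0 of 6245 regions passed in the first place, this says little on stability. Among all regions the count was 0 except without WT 2 and WT 3 together, where it was 2. With only peaks at or above the median of their list, the difference turned to -0.333 peaks and -88.7 bases for Ythdf1, -396 bases for Ythdf2 and -267 bases for Hnrnpa2b1, and with lists of equal length to -185 bases for Ythdf2. Without centring, the log2 difference turned to 0.028 for Hnrnpc region 2 and 0.0012 for Ythdf2 region 2. Without WT 2 and WT 3 together it turned to -0.038 for Ythdf3 region 1, 0.073 for Ythdf2 region 2 and 0.13 for Ythdc1 region 6, with 1 member whose peak numbers and 2 members whose covered bases did not overlap (9.5% and 16.1% of all genes with HFD higher). The cause of these turns was not tested.

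When 1 library was left out, the differences ranged from -196 to 356 bases for Ythdf2 and from -163 to 582 bases for Hnrnpa2b1. Those of log2 fold enrichment ranged from -0.23 to 0.13 for Hnrnpc region 1, from -0.31 to 0.20 for Hnrnpc region 2, from -0.12 to 0.28 for Ythdf3 region 1, from -0.15 to 0.029 for Ythdf2 region 2, from -0.20 to 0.15 for Ythdc1 region 6 and from -0.49 to 0.0012 for Ythdc1 region 7. The members whose groups did not overlap numbered 0 to 1 for peak numbers (2.3% to 4.83% of all genes with HFD higher) and 1 to 2 for covered bases (5.49% to 10.1%). HFD-only member regions numbered 0 to 2, with 1 without WT 1 (228 of all regions) and 2 without WT 3 (345 of all regions).

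Deviations of same-numbered libraries correlated at -0.04, 0.02 and -0.22, against -0.18 to 0.21 for libraries of different number. This gave no sign of pairing by replicate number, but with 3 libraries a group it cannot settle the question. With the replicate block, 0 member regions passed in limma, and the Hnrnpc difference was 812 bases (two-sided exact sign flips, p = 0.25, the smallest possible). Covered bases in exons alone were not run, since no exon annotation was used here. WT 2 and WT 3 together and equal lists for covered bases were chosen after seeing the data. Intervals from depth could not be given, since depth is unknown.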
